A study of Mus musculus with 24 samples.

Results

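The miR-15/16 family is a set of microRNAs that share a seed, the bases near the 5′ end through which a microRNA bound to an Argonaute protein pairs with messenger RNA. Paired messages are usually translated less and decay faster, and in lymphocytes the family is known for restraining cyclins, other drivers of the cell cycle and the survival protein Bcl2. The regions described here are AGO2-bound peaks in mouse 3′ UTRs whose deposited sequence holds TGCTGCT, the match to nt 2-8 of miR-16-5p, or GCTGCTA, the match to nt 2-7 followed by A, and no 7-nt site of miR-155-5p. The rule used sequence alone and no read values. Leaving out miR-155 sites does bear on the comparison of wild type with miR-155 knockout cells below. All 5 peaks removed this way had more reads in wild type. The rule gave 665 peaks in 601 genes, out of 14634 peaks in 4165 genes, which is 4.54% of all peaks.

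The peaks come from AGO2 HITS-CLIP, in which AGO2 is immunoprecipitated together with the RNA fragments bound to it and those fragments are sequenced. CD4+ T cells were isolated from spleen and lymph nodes of C57BL/6 mice, either wild type (WT) or miR-155 knockout (KO), and were cultured for 4 days with CD3 and CD28 antibodies, listed at 1 µg/mL, and 20 U/mL IL-2. The labels give 12 libraries per genotype as biological replicates. In each genotype 6 libraries were made with 3′ linker 1 and 6 with 3′ linker 2. KO libraries with replicate numbers 1-6 carry linker 1 and the WT libraries with those numbers carry linker 2, and this is reversed for the rest. Within either set, genotype cannot be told apart from the linker. The sources used here give neither the age and sex of the mice nor the number of animals behind a library. The comparison of WT with KO asks, for these peaks, whether AGO2 binding at sites of another microRNA family differed when miR-155 was missing.

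The deposited table has 1 read value per genotype for each peak, on a log2(reads + 1) scale. Values below are scaled reads, recovered as 2 to the deposited value minus 1, with the WT value first. There is no value per library, so no spread between replicates can be given, the sequencing depth is unknown, and no counting interval is stated. Peaks of CD4+ T cell marker genes were found for 9 of 11 markers (4241 reads in WT and 6061 in KO). Most of these reads lay in Il2ra (1934 and 3293) and Cd28 (1639 and 2111), whose KO values were higher, while Cd4 had 75.9 and 63.3 and Icos 345 and 305. Thy1 had 194 and 217 and Cd3e 51.7 and 58.9. Other markers had hardly any reads: Cd3d 0 and 0.634, Cd3g 0 and 5.43, and Cd247 0.822 and 6.18. Of 31 markers of other cell types, 2 had a peak, the B cell gene Cd22 and the antigen-presentation gene H2-Aa, with 23.1 reads in WT and 1.83 in KO together, and neither held a miR-15/16 site. The reads are AGO2-bound fragments of bulk material. Fewer cells of a type, less RNA per cell and less AGO2 binding to a message cannot be told apart.

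The seed is shown first because every region was chosen by it. In the mature sequences (RefSeq, build GRCm38.p6) nt 2-8 are in capitals for the family members and, for contrast, for the related and the deleted microRNA.
miR-16-5p: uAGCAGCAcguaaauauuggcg
miR-15a-5p: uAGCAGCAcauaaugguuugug
miR-15b-5p: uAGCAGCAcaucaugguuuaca
miR-195a-5p: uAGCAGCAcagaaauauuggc
miR-322-5p: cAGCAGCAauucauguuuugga
miR-497a-5p: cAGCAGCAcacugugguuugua
miR-503-5p: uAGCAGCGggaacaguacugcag
miR-103-3p: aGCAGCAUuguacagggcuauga
miR-155-5p: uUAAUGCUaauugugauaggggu

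In RefSeq 10 mature mouse microRNAs had the same nt 2-8 as miR-16-5p: miR-15a, miR-15b, miR-16, miR-195a, miR-195b, miR-322, miR-497a, miR-6342, miR-6353 and miR-6419. miR-503-5p shared nt 2-7 only, so it shares the GCTGCTA site. Reads in a peak cannot tell these microRNAs apart. miR-15a and one copy of miR-16 are encoded close together on chromosome 14 (chr14:61632075-61632096 and chr14:61631936-61631957, minus strand). miR-15b and the other copy lie on chromosome 3 (chr3:69009775-69009796 and chr3:69009918-69009939, plus strand). The seed of the miR-103 family is shifted by one base against that of miR-16, so the sites overlap by letters: 153 of the 665 peaks (23.0%) also held a miR-103 site, against 1.58% of the other peaks.

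Sites of the most-read and most-referred-to regions are printed next, 5′ to 3′ on the transcript strand, cut from the deposited peak sequences. Capitals mark the bases that match nt 2-8 or nt 2-7 of miR-16-5p, with the A opposite nt 1 where there is one.
Aldoa peak 1: tctttcccatcactctTGCTGCTg
Myb peak 6: ctatggttttagcctgtagtcaTGCTGCTA
Cd28 peak 16: aagaaaactatgtcactTGCTGCTA
Ly6a peak 3: tgtcattttgttgtggatTGCTGCTc
Btg2 peak 9: aaaacctttgctttgctctgTGCTGCTt
Btg2 peak 11: cacacgacagtctgaaTGCTGCTA
Fnip1 peak 10: gcccaaggaatgaGCTGCTA
Rgs16 peak 4: tgttgtgttgtgccgattgtctcGCTGCTA
Irf4 peak 30: tcacttagtccttgctaatTGCTGCTc
Ccnd2 peak 18: tttattattattatttttcGCTGCTA
Ccnd2 peak 19: ctagctgtaatgtttcacggtgTGCTGCTA
Ccnd2 peak 7: catactcttgctgactaaagtaGCTGCTA
Ccne1 peak 2: tcatgaactcttattttgtaagTGCTGCTA
Il7r peak 6: gttatcaagaccatgattttccTGCTGCTA
Bcl2 peak 9: atggaataagaaaccctgTGCTGCTA
Fosl2 peak 12: taagaaaagcttggtaggagctTGCTGCTA
Chd2 peak 1: cgggtttctggatatgcTGCTGCTg
Hipk2 peak 3: cagaccaggaatgagtgttcctTGCTGCTc

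Their positions were found by exact match of the peak sequence to GENCODE M21 transcripts (GRCm38), and each lies in the last exon, in the 3′ UTR. The 8 bases that face nt 8 to nt 1 of the microRNA lie at chr7:126795316-126795323 in Aldoa (minus strand), chr10:21125459-21125466 in Myb (minus), chr1:60772056-60772063 in Cd28 (plus) and chr15:74995032-74995039 in Ly6a (minus). In Btg2 they lie at chr1:134076623-134076630 and chr1:134076489-134076496 (minus), in Fnip1 at chr11:54517715-54517722 (plus), in Rgs16 at chr1:153745168-153745175 (plus) and in Irf4 at chr13:30766546-30766553 (plus). The Ccnd2 sites lie at chr6:127128611-127128618, chr6:127128541-127128548 and chr6:127129695-127129702 (minus). Ccne1 has its site at chr7:38098023-38098030 (minus), Il7r peak 6 at chr15:9506933-9506940 (minus), Bcl2 at chr1:106540798-106540805 (minus), Fosl2 at chr5:32157699-32157706 (plus), Chd2 at chr7:73429547-73429554 (minus) and Hipk2 at chr6:38695352-38695359 (minus). Of the 665 peaks, 633 lay in an annotated 3′ UTR, 7 in another exon, 3 in a transcript without a coding region, and 22 found no exact match.

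Sites of 8 nt, with both the nt 8 pair and the A (8mer), were the best site in 170 peaks. A match to nt 2-8 without the A (7mer-m8) was the best in 413 peaks and the 7-nt site ending in A without the nt 8 pair (7mer-A1) in 82. A further 242 peaks held only the 6-nt core GCTGCT and are not counted. One site was found in 617 peaks, 2 in 32, 3 in 9, 4 in 5 and 5 in 2, and sites in a run of TGC units overlap each other. Such a run of 3 or more units was in 105 of the peaks (15.8%). Pla2g15 peak 1, from a lysosomal phospholipase gene, held 5 sites (62.2 and 37.6 reads), as did Med1 peak 1, from a Mediator subunit gene (17.2 and 7.85 reads).

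The letters TGCTGCT were the most frequent of all 16199 7-mers seen in the peaks. They were in 587 peaks, 4.01% of the table, counting peaks with a miR-155 site too. GCTGCTA was in 256 peaks (1.75%) and ranked 102. On the other strand the same letters were rare: AGCAGCA, the reverse complement of TGCTGCT, was in 40 peaks (0.273%) and ranked 6467, and TAGCAGC, that of GCTGCTA, was in 31 (0.212%). Ranked by the reads in the peaks that hold them, TGCTGCT was at place 4. Against 18 other microRNA families searched with the same rule, the miR-15/16 family had the most peaks and the most reads. Next by number of peaks came miR-17 with 538, miR-27 with 519, and miR-23 and miR-19 with 444 each, and let-7 had 279. Whether this order reflects the amount of each microRNA in the cells was not tested.

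Peaks with a miR-15/16 site held 24374 scaled reads in WT and 25591 in KO, 6.57% and 6.84% of all reads. Their median was 27.6 reads over both genotypes (quartiles 11.2 and 64.1), against 16.7 in the other peaks. Site peaks of some other families had higher medians, 34.4 for miR-142-3p and 28.5 for miR-17, and others lower ones, as 22.2 for miR-27. By class the median was 40.2 reads in 8mer peaks, 26.1 in 7mer-m8 peaks, 20.8 in 7mer-A1 peaks and 18.6 in peaks with the 6-nt core alone. The reads were unevenly spread: the 10 most-read peaks held 28.8% of them, and Aldoa alone 7.04%. At least 10 reads were found in 518 of the peaks and at least 100 in 99.

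The most-read peaks came from genes of varied roles. The single peak of Aldoa, the glycolytic enzyme aldolase A, had 1847 reads in WT and 1668 in KO, and it also held a miR-27 site. Myb peak 6, in the gene of a transcription factor of lymphoid progenitors, had 1398 and 922. Cd28 peak 16, in the gene of the main costimulatory receptor of T cells, had 901 and 1122. These 2 are 8mer peaks that dominate their messages, with 81.0% of the reads over the 12 Myb peaks and 54.0% of those over the 28 Cd28 peaks. Ly6a peak 3, in the gene of the surface protein Sca-1 of activated lymphocytes, had 608 and 598, which is 71.9% of its gene's reads.

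**Figure D1:**
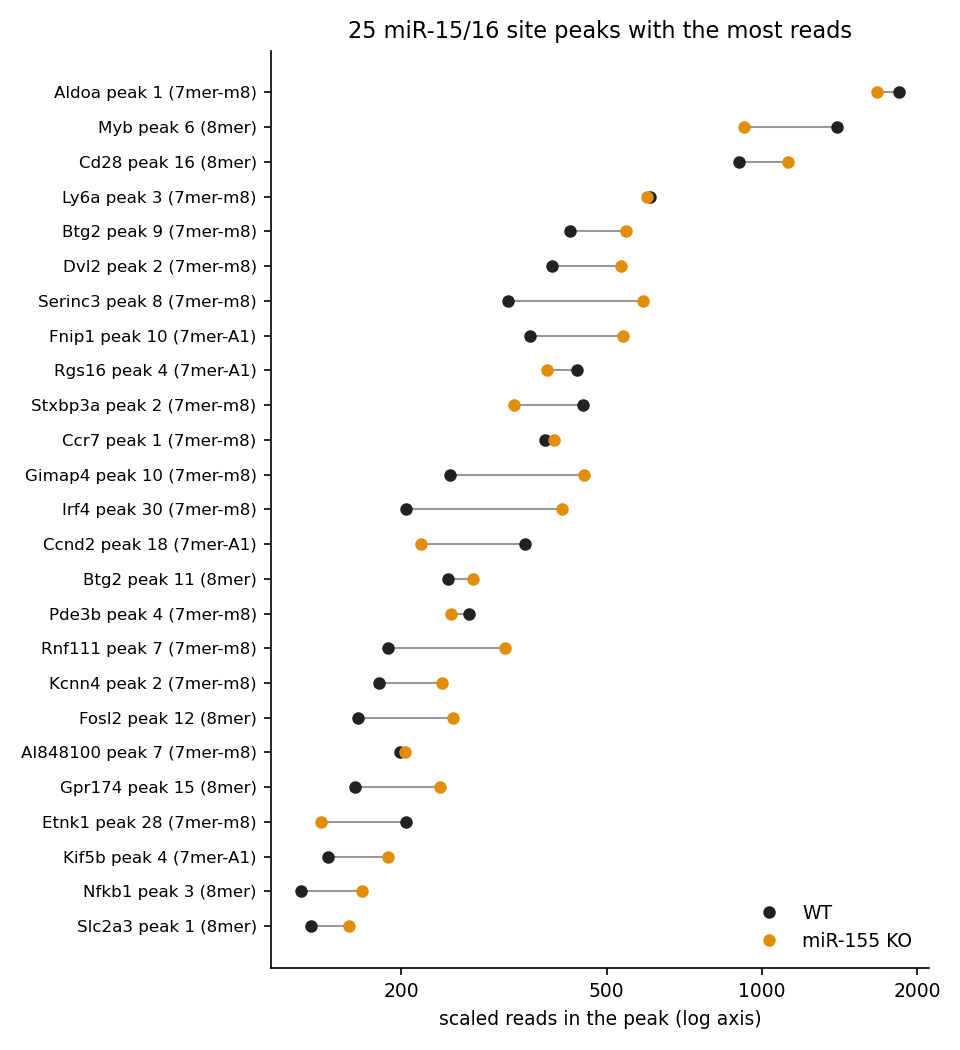
Scaled AGO2 reads (log axis) in WT and miR-155 KO for the 25 miR-15/16 site peaks with the most reads, 1 point per genotype. Aldoa, Myb and Cd28 lead, the WT value is the higher in 8 of the 25 peaks, and only Irf4 peak 30 differs by more than 2-fold.

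Btg2 encodes an antiproliferative protein that recruits the CCR4-NOT deadenylase, and it carried 2 site peaks, peak 9 with 426 and 545 reads and peak 11 with 246 and 275. They were a small part of a heavily bound UTR, since peak 9 held 7.56% of the reads over 23 Btg2 peaks. Serinc3 peak 8, in the gene of a multipass membrane protein, had 322 and 589. Fnip1 peak 10, in the gene of a folliculin partner in nutrient sensing, had 355 and 538 and also held a miR-142-3p site. Rgs16 peak 4, in the gene of a GTPase-activating protein for G-protein signalling, had 438 and 384. Stxbp3a peak 2, from a syntaxin-binding gene of vesicle fusion, had 451 and 331. The chemokine receptor gene Ccr7, whose product guides T cells to lymph nodes, had 380 and 395 at peak 1. Gimap4 peak 10, in the gene of a lymphocyte GTPase, had 248 and 451. Irf4 peak 30, in the gene of a transcription factor induced by T cell receptor signals, had 204 and 410. Pde3b peak 4, from a cyclic nucleotide phosphodiesterase gene, had 270 and 250. Among these most-read peaks neither genotype led throughout: of the first 15, WT was the higher in 6 and KO in 9.

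Dvl2 peak 2, with 392 and 534 reads, stands apart because of where it lies. At chr11:70012094-70012128 (plus strand) it overlaps the hairpin of miR-324 (chr11:70012043-70012131) and the whole of mature miR-324-3p (chr11:70012095-70012114), which itself holds the site letters, marked in capitals here.
miR-324-3p: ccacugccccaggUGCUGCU
Reads from this microRNA and reads from a target site in Dvl2 cannot be told apart at this peak. The same letters are in 7 mature mouse microRNAs in all, and 10 of the 665 peaks have an exact copy of their sequence in another annotated gene, among them Cpne1 peak 2 (82.3 and 99.3 reads).

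None of the 665 peaks was called different between WT and KO. The authors' deposited table gives a p-value of differential binding for each peak, and after Benjamini-Hochberg adjustment over all 14634 peaks, 88 peaks passed 0.05 (0.601%), of which 84 were lower in KO (0.574%) and 4 higher (0.0273%). The smallest adjusted p among the miR-15/16 site peaks was 0.194, for Chd2 peak 1. At an unadjusted p below 0.05 there were 13 peaks lower in KO (1.95%, against 2.72% of all peaks) and 8 higher (1.20%, against 1.48%). These shares lie a little under those of the whole table, which also holds the 265 miR-155 site peaks. Of those 265, 59 were called and 41.9% had an unadjusted p below 0.05. Shares of the table without them were not computed. How the p-value was computed is not stated, and its order does not follow the reads alone: Gpatch8 peak 1 had 49.8 and 37.1 reads with a p of 0.00584 in the authors' deposited table, while Ficd peak 2 had 15.3 and 0 with a p of 0.856 there. A p that misses the threshold does not show that the binding was equal.

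The median log2 ratio of WT over KO, from the authors' deposited table, was 0.03 (quartiles -0.62 and 0.81) over the miR-15/16 site peaks and 0.21 over the other peaks. Among peaks with at least 10 reads the medians of the same column were -0.04 and 0.10, and among those with at least 100 reads -0.13 and -0.10. WT had more reads in 346 peaks and KO in 318, and 1 was listed at 0 in both. Peaks with a miR-155 site, the control for the deleted microRNA, had a median of 3.16. For miR-17, miR-27 and miR-23 site peaks the medians were 0.18, 0.02 and 0.05. By class of site, the log2 ratio in the authors' deposited table had a median of 0.07 in 8mer peaks, -0.01 in 7mer-m8 peaks, 0.25 in 7mer-A1 peaks and -0.07 with the 6-nt core alone. Among peaks with at least 10 reads, 65 peaks were more than 2-fold higher in WT and 70 in KO, together 26.1%, against 34.3% of the other peaks. The same share was 26.7% for miR-17, 27.2% for miR-27 and 24.6% for miR-23 site peaks, so it was not particular to miR-15/16. WT was listed at 0 in 39 of the 665 peaks (5.86%, against 7.96% of the others) and KO in 65 (9.77%, against 16.9%). For KO the share was likewise 9.11% in miR-17, 9.63% in miR-27 and 10.4% in miR-23 site peaks.

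**Figure D2:**
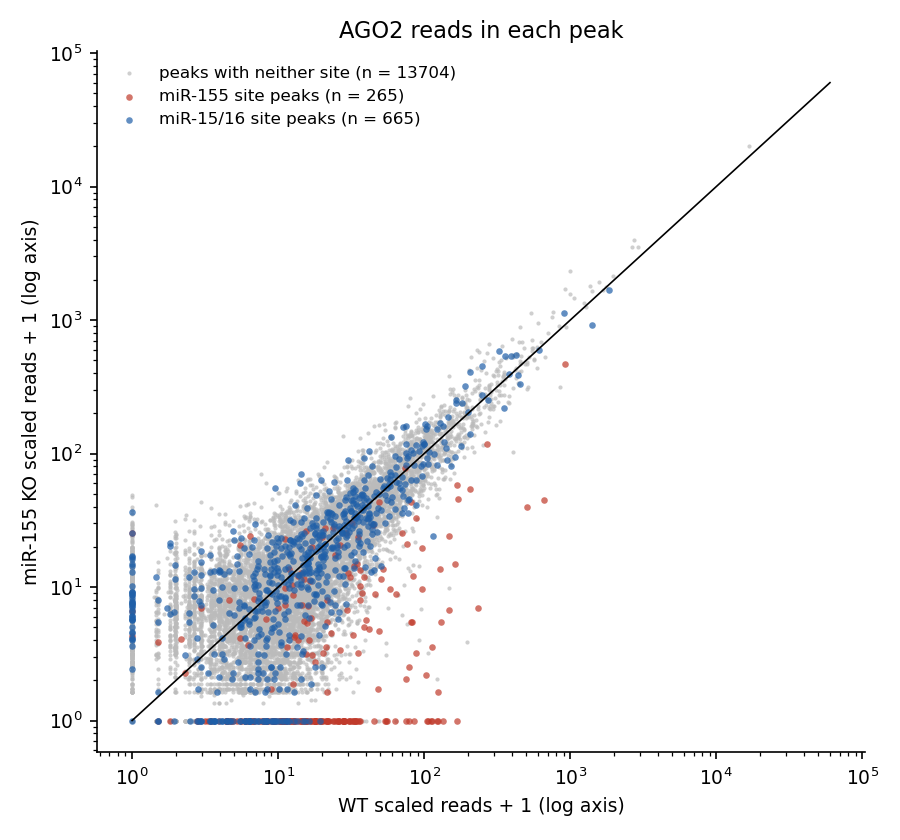
Scaled AGO2 reads + 1 in WT (x) and miR-155 KO (y), both log axes, with 1 point per peak and the line of equality. The 665 miR-15/16 site peaks (blue) lie on both sides of the line, as do the peaks with neither site (grey), while 247 of the 265 miR-155 site peaks (red) lie on the WT side.

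**Figure D3:**
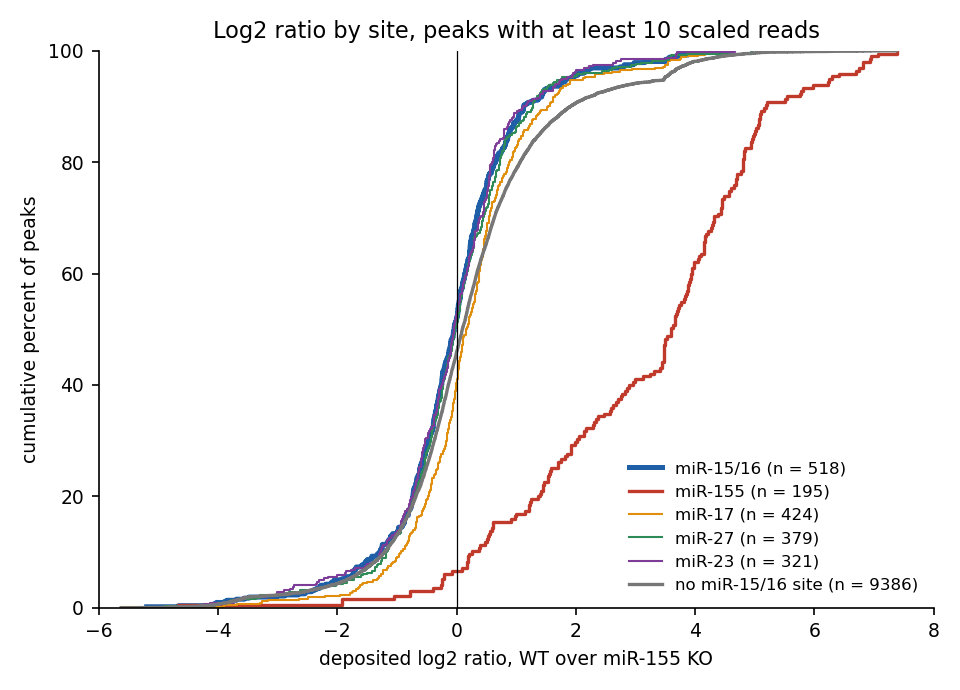
Cumulative percent of peaks by deposited log2 ratio of WT over KO, for peaks with at least 10 scaled reads of each site family and for all peaks with no miR-15/16 site. The miR-15/16 curve (518 peaks, median -0.04) runs close to those of miR-27 (-0.03) and miR-23 (-0.04), and the miR-155 curve (median 3.60) lies far to the right.

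The peaks with the smallest deposited p are given next, first those higher in KO. Chd2 peak 1, from a chromatin remodeller gene, had 11.0 and 31.0 reads, with a log2 ratio of -1.42 and a p of 0.00187 in the authors' deposited table. Hipk2 peak 3, from the gene of a nuclear kinase of the p53 response, had 13.1 and 59.5 (p 0.00220 in the authors' deposited table). Zswim3 peak 1 had 8.02 and 20.8, and Mapk3 peak 1, in the gene of the kinase ERK1, had 2.93 and 12.01. Wbp11 peak 2, from a pre-mRNA splicing gene, was listed at 0 in WT and had 24.3 in KO. Mrps6 peak 1, from a mitochondrial ribosomal protein gene, had 5.28 and 16.7. Gcc2 peak 1, from a Golgi tether gene, had 21.2 and 51.8, and Camsap1 peak 2, from a microtubule-end protein gene, had 36.2 and 48.7. All were far from the adjusted threshold, with adjusted p from 0.194 to 1.00.

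In the other direction, Mtap9 peak 1, from a microtubule-associated protein gene, had 13.8 reads in WT and was listed at 0 in KO (p 0.00361 in the authors' deposited table). Traf3 peak 4, an 8mer peak in the gene of a brake on noncanonical NF-kB signalling, had 38.5 and 13.2 (p 0.00758 in the authors' deposited table). Prpf4 peak 1, from a spliceosome gene, had 18.3 and 0, and Stub1 peak 1, in the gene of the chaperone-linked ubiquitin ligase CHIP, had 8.45 and 0. Mnt peak 1, in the gene of a repressor that pairs with MAX, had 3.92 and 0, and Rsbn1 peak 2 had 12.4 and 2.57. Pdzd8 peak 5 had 44.3 and 12.3, and Gpatch8 peak 5 had 15.1 and 6.32, leaning the same way as Gpatch8 peak 1. Prr11 peak 3, from a proline-rich protein gene linked to the cell cycle, had 113 and 23.1, a log2 ratio of 2.24 and a p of 0.0244 in the authors' deposited table. Of the 99 site peaks with at least 100 reads it had the largest ratio towards WT.

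Genes already reported as miR-15/16 targets were well represented. Of 40 such genes taken from general knowledge, 32 had any peak and 22 of those (68.8%) had a miR-15/16 site peak, against 14.4% of all genes with peaks. The list and the peaks were both defined through the same seed match, so the higher share is a description. Counted by peaks the gap is smaller, with 28 site peaks among the 259 of these genes, beside 665 among 14634 over all genes. Of the 28, 14 were higher in WT and 14 in KO, none called. Their median log2 ratio in the authors' deposited table was -0.01 beside 0.03 for all 665.

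Cell cycle genes on that list showed both directions. Ccnd2, the gene of cyclin D2, had 3 site peaks, all with more reads in WT: peak 18 with 348 and 219, peak 19 with 70.8 and 47.0, and peak 7 with 52.9 and 29.2. Over all 28 Ccnd2 peaks, these 3 included, the reads were 1374 and 1298. The remaining Ccnd2 peaks together had more reads in KO, so they did not share the lean to WT. Ccne1, the gene of cyclin E1, leaned the other way: peak 2 had 70.2 and 157 reads, 95.5% of the gene's reads, with a p of 0.0567 in the authors' deposited table. Cdc25a, whose product is a phosphatase that activates cyclin-dependent kinases, had 27.6 and 35.8 at peak 3. E2f3, a transcription factor gene of S phase entry, had 39.1 and 45.3 at its 8mer peak 8 and 14.9 and 14.3 at peak 3. Mybl1, a relative of Myb, had 5.90 and 5.57 in a peak with 2 8mer sites. Ppm1d, the gene of the phosphatase Wip1, had 1.29 and 2.09, and the serine/threonine kinase gene Pim1 had 62.0 and 95.6.

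Among survival and signalling targets, Bcl2, whose product blocks apoptosis, had 11.7 and 29.6 reads at its 8mer peak 9, which held 5.94% of the reads over 15 Bcl2 peaks. Its relative Bcl2l2 had 7.40 and 0 at peak 2, and the ubiquitin ligase gene Siah1a had 0.925 and 5.54. Mcl1, another survival gene of the list, had 21 peaks and no site peak. Rictor, the gene of a subunit of the mTORC2 complex, had 40.4 and 31.6 at peak 29. Insr, the insulin receptor gene, had 11.1 and 10.3 at peak 1 and 0 and 7.22 at peak 3. Vegfa, an angiogenic factor gene, had 18.5 and 18.2, and the small GTPase gene Arl2 had 4.58 and 22.2 in a peak with 3 sites.

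In the cytokine receptor and JAK-STAT list, 5 of 35 genes with peaks had a site peak (14.3%, beside 14.4% of all genes). Il7r, the receptor gene for the T cell survival cytokine IL-7, had 142 and 89.2 reads at peak 11 (p 0.0472 in the authors' deposited table) and 58.3 and 132 at peak 6, an 8mer peak. These 2 peaks of one message leaned opposite ways. Il10ra had 36.4 and 40.4 at its 8mer peak 4 and 27.2 and 28.2 at peak 3. Jak2, the gene of a kinase bound to cytokine receptors, had 102 and 151 at peak 9 and 73.9 and 160 at peak 5. The only peak of Il21, a cytokine gene of helper T cells, was listed at 0 in WT and had 35.6 in KO, with a p of 0.151 in the authors' deposited table. In all, the 5 genes held 8 site peaks, 2 higher in WT and 6 in KO, none called.

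The TGF-beta and SMAD list had the highest share of genes with a site peak after the reported targets, 8 of 16 genes with peaks. It had 10 site peaks among 97 peaks, beside 665 among 14634 over all genes. WT was the higher in 8 of the 10, none was called, and the median log2 ratio in the authors' deposited table was 1.03 beside 0.03 for all site peaks. Over all peaks of the list the reads were 2677 and 2724. Among the lists this median ran from -0.88 (MAP kinase signalling, 3 site peaks) to 1.12 (T cell receptor and costimulation, 4 site peaks). Smurf1, a ubiquitin ligase gene that limits SMAD signalling, had 71.4 and 37.9 reads at a peak with 2 overlapping sites. Its relative Smurf2 had 13.8 and 2.30 (p 0.0413 in the authors' deposited table). The inhibitory SMAD gene Smad7 had 16.6 and 6.79 at an 8mer peak. The receptor gene Bmpr1a had 21.6 and 6.68 at peak 1, and the SMAD repressor gene Ski had 22.6 and 18.6. Smad5, a transducer of BMP signals, had 15.2 and 11.7 at peak 4 and 0 and 13.8 at peak 9. Smad7 and Smurf2 also stand on the list of reported targets. With 10 peaks of mostly under 40 reads and no value per library, the error of this median is unknown.

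In 11 of 48 chromatin genes with peaks (22.9%, beside 14.4% of all genes) there were 15 site peaks. By peaks that is 15 of 338, beside 665 of 14634 over all genes. KO was the higher in 11 of the 15, beside 318 of all 665. The median log2 ratio of the 15 in the authors' deposited table was -0.30, beside 0.03 for all site peaks, and none was called. Over all peaks of the list the reads were 9185 and 9346. With no value per library, the error of this median too is unknown. Suz12, a gene of the complex that methylates histone H3, had 62.5 and 68.4 reads at peak 4. Tet3, a gene of 5-methylcytosine oxidation, had 35.8 and 48.0 at peak 15, and the heterochromatin protein gene Cbx5 had 32.5 and 47.4 at peak 10. In genes of the microRNA pathway and mRNA decay, 6 of 26 with peaks had a site peak (8 of 245 peaks). WT was the higher in 6 of the 8. Cnot6l, a deadenylase gene, had 179 and 113 at its 8mer peak 8. Tnrc6b, whose product links Argonaute to the decay machinery, had 115 and 97.4 at peak 32 and 43.2 and 26.4 at peak 24. Eif2c2, the gene of AGO2 itself, had 14.8 and 38.1, and the decapping gene Dcp1a had 24.6 and 17.2.

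Of the T cell transcription factor genes, 9 of 41 with peaks held 10 site peaks, 6 higher in WT. That is 22.0% of genes, beside 14.4% of all genes, but by peaks 10 of 375, beside 665 of 14634. Beyond Myb and Irf4 the 9 genes included the AP-1 gene Fosl2, with 165 and 252 reads at its 8mer peak 12, and Crem, with 162 and 92.7 at peak 10. The NF-kB list had 3 of 14 genes (3 of 71 peaks), led by Nfkb1, the gene of the p105 precursor, with 128 and 168 at an 8mer peak. Tnfaip3, the gene of the NF-kB inhibitor A20, had 2.44 and 12.03. The cell cycle list as a whole had 13 of 48 genes (18 of 289 peaks), with 10 of the 18 site peaks higher in WT. Its members include the 8mer peaks of Cdca4, with 97.3 and 81.8, and of Fbxw7, with 74.5 and 81.4. The apoptosis and p53 list had 9 of 26 genes (9 of 234 peaks), with 6 of the 9 site peaks higher in KO. Pdcd4, the gene of a translation inhibitor, led it with 103 and 160, followed by the caspase-8 regulator gene Cflar with 26.7 and 34.4. The ubiquitin ligase list had 10 of 29 genes (10 of 202 peaks), 4 of the 10 site peaks being higher in WT. Rnf111, the gene of Arkadia, had 188 and 318 in a peak with a miR-27 site as well, and Ubr3 had 11.9 and 40.5.

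Shares of genes with a site peak differed among the signalling lists, with no test of the difference. In the T cell receptor and costimulation list 4 of 46 genes with peaks had a site peak (8.70%, under the 14.4% of all genes): Cd28, the inhibitory receptor gene Btla with 37.0 and 17.4 reads, the adaptor gene Lcp2 with 6.26 and 2.15, and Tnfsf9, the gene of 4-1BB ligand, with 10.9 and 0. MAP kinase signalling had 3 of 33 (9.09%): Mapk3, Mapk8, the gene of the kinase JNK1, with 11.1 and 21.4, and Map3k2 with 17.5 and 12.3. The PI3K-AKT-mTOR list had 5 of 28 (17.9%), among them Pik3r1, the gene of the p85 subunit, with 3.29 and 11.6. Counted by peaks, it had 6 site peaks among 165, beside 665 among 14634 over all genes. A gene with more peaks has more chances to hold a site peak, and no list's share was adjusted for this. None of the site peaks on these lists was called.

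Several messages carried more than one site peak. There were 2 in each of 49 genes and 3 in Aff4, Ccnd2, Lats1 and Tnrc6b. The uncharacterised 2400003C14Rik had 4 and the kinase gene Uhmk1 had 5. Counting only peaks with at least 10 reads, 37 genes had more than one. All such peaks were higher in WT in 8 of these genes, all were higher in KO in 12, and 17 were mixed. The middles of neighbouring site peaks lay 1145 nt apart in the median (range 47.5 to 3809), and 4 of 43 gaps were within 100 nt. The shortest was in Atxn7l3b, and in Ccnd2 peaks 18 and 19 lay 57.5 nt apart. Aff4, a gene of the super elongation complex, leaned to KO at each of its peaks (80.2 and 105, 37.3 and 47.5, 18.7 and 24.8). Cd274, the gene of the inhibitory ligand PD-L1, had 90.5 and 103 at peak 6 and 94.4 and 79.9 at peak 17. Lrrc32, the gene of the TGF-beta anchor GARP, had 42.3 and 11.998 at peak 1 and 32.9 and 32.3 at peak 2, 85 nt away. Lats1, a Hippo pathway kinase gene, had 42.3 and 29.4 at peak 10. The potassium channel gene Kcnn4 had 181 and 240 at peak 2 and 20.5 and 32.6 at peak 5. The others with at least 10 reads in more than one site peak were 2310008H09Rik, A930001N09Rik, Arih1, Cdc27, Egln3, Gse1, Hsd17b7, Hus1, Lrp6, Mtmr3, N4bp1, Nucks1, Nup210, Nup50, Plcxd2, Pura and Rab14.

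To set a site peak against its own message, it was compared with the other peaks of the gene where both had at least 10 reads, in 411 peaks of 368 genes. For the gene's remaining peaks the log2 ratio was computed here from their summed reads, with 1 added to each sum. The deposited log2 ratio of the site peak minus that of the remaining peaks had a median of -0.14 (quartiles -0.87 and 0.50). In Myb the neighbouring peak 7 had 93.5 and 55.7 reads, so the higher WT value of peak 6 was shared by peaks without the site, and the difference was -0.31.

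In 50 of the 601 genes another peak held a miR-155 site, beside 242 of all 4165 genes, with no adjustment for peaks per gene. In 15 of the 50 that peak was called lower in KO. These 15 genes held 16 miR-15/16 site peaks, none called. Of the 16, 11 had more reads in WT and 5 in KO, beside 346 and 318 of all 665. Site peak and remaining peaks both had at least 10 reads in 15 cases. There the log2 ratio in the authors' deposited table had a median of 0.75 at the site peaks. That of the genes' remaining peaks, computed here from their summed reads with 1 added to each sum, had a median of 1.07. The remaining peaks include the miR-155 site peak by which each gene was chosen. Their lean to WT was thus set by the choice, and the 2 medians cannot be weighed against each other. The examples that follow were chosen after their values were seen, and lean both ways. In Fosl2, the miR-155 site peak 7 went from 166 reads in WT to 0 listed in KO (adjusted p 1.35e-19), while the miR-15/16 site peak 12, which lies further 3′ in the same UTR, had 165 and 252. Irf2bp2, the gene of a transcriptional corepressor, had 77.6 and 0 at the miR-155 site (adjusted p 2.49e-11) and 51.2 and 54.4 at the miR-15/16 site. Jarid2, a Polycomb partner gene, had 129 and 4.46 (adjusted p 2.22e-10) and 30.3 and 43.8. Ash1l, a histone methyltransferase gene, had 111 and 0 (adjusted p 1.68e-25) and 35.1 and 20.5 at sites whose peaks start 135 nt apart. Usp14, Zdhhc21 and Nf1 had few reads in KO at both kinds of peak, with 19.9 and 4.08, 18.9 and 1.52, and 13.3 and 1.04 at the miR-15/16 site. The adjusted p is that of the deposited p after Benjamini-Hochberg adjustment, and the difference between the 2 kinds of peak in a gene was not tested.

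**Figure D4:**
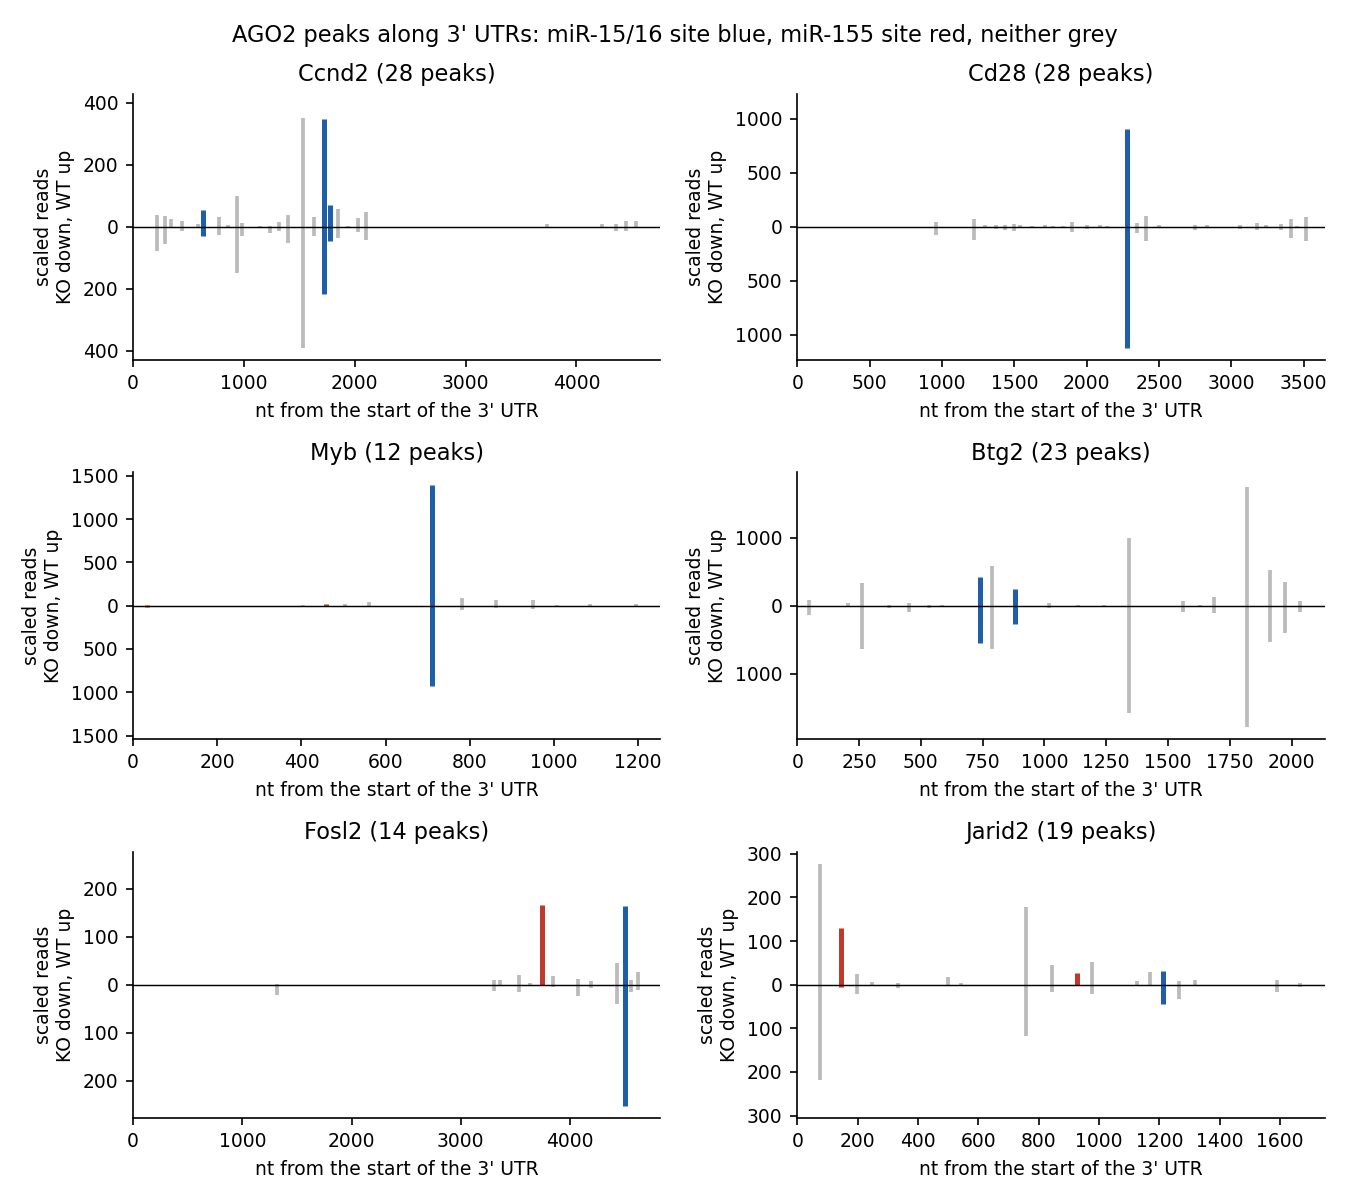
AGO2 peaks of 6 genes by distance from the start of the 3′ UTR (nt), with scaled reads in WT drawn upward and in miR-155 KO downward. A single miR-15/16 site peak (blue) dominates Cd28 and Myb, Ccnd2 and Btg2 hold several beside unrelated peaks (grey), and in Fosl2 and Jarid2 the miR-155 site peaks (red) nearly vanish in KO while the blue peaks have reads in both.

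The rule left out 5 peaks that hold both kinds of site, and their values stand beside the rest for completeness. Tnfsf9 peak 2 had 508 and 39.1 reads and Zmym2 peak 1 had 39.2 and 4.69, with adjusted p of 6.61e-14 and 0.000134. Wee1 peak 2, in the gene of a kinase that holds back mitosis, had 80.6 and 42.1, Socs6 peak 3 had 29.0 and 11.7, and Rsbn1 peak 3 had 8.43 and 0. All were higher in WT.

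The sites lay close to the middle of their peaks. Measured from the middle of the deposited sequence, the middle of the site was at +2 nt in the median, 3′ being positive (quartiles -2 and 7). Of 738 sites, 76.4% were within 10 nt of the middle, where an even spread over each peak would put 44.4%. The share was 80.1% in 8mer peaks, 76.8% in 7mer-m8 peaks and 65.9% in 7mer-A1 peaks. It was 83.0% in peaks with at least 100 reads and 74.1% in those under 10. In the other families it was 74.6% for miR-29, 72.8% for let-7, 66.6% for miR-17, 60.3% for miR-27, 57.3% for miR-23 and 39.7% for miR-181. Positions within a peak depend on how its edges were set, and no source used here states it.

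**Figure D5:**
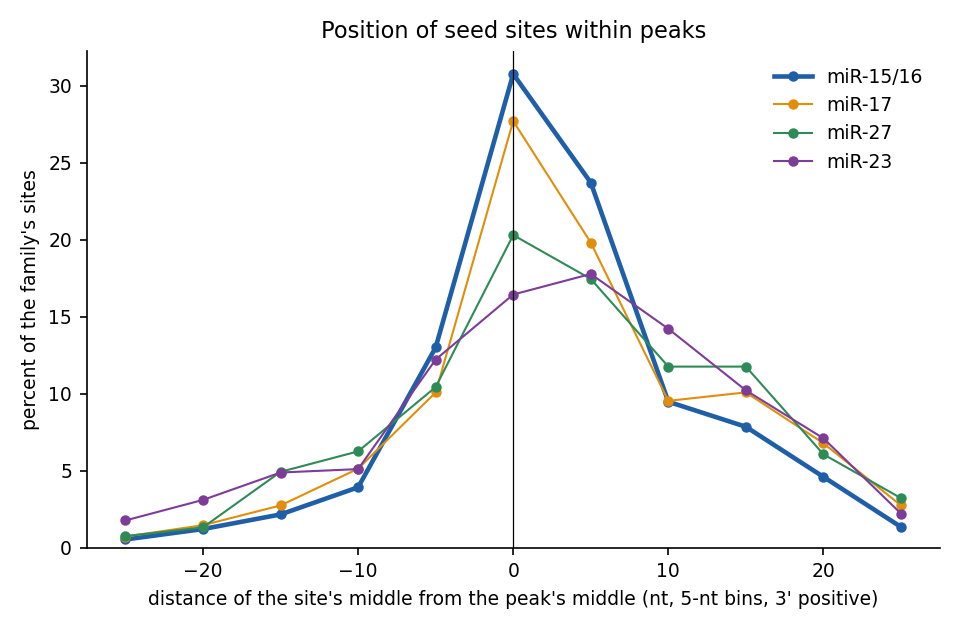
Distance of the middle of each site from the middle of its peak (nt, bins of 5 nt, 3′ positive) as a percent of each family's sites. In the central bin stand 30.8% of the miR-15/16 sites and 27.7% of the miR-17 sites, and all 4 curves have a longer shoulder on the 3′ side.

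In composition the site peaks were richer in G and C, with a median of 43.1% against 36.5% in the other peaks, the site itself included. After a match to nt 2-8 the next base was G in 37.9% of cases and A in 26.1%, against 19.9% and 28.9% among all bases of all peaks. A match inside a longer run of TGC units is followed by G by its letters. The 105 peaks with such runs were not set apart, and overlapping sites were each counted. The 10 nt on the 5′ side of the site were 58.8% A or T and those on the 3′ side 58.0%, against 66.5% and 64.5% around miR-17 sites. Other families were closer, with 59.7% and 58.1% around miR-24 sites and 62.4% and 58.6% around let-7 sites. The AU-rich pentamer ATTTA was in 7.52% of the site peaks and 11.8% of the others, and the Pumilio motif TGTANATA in 1.50% and 3.81%. A 7-nt site of any of 15 other families, leaving out miR-103 with its overlapping letters, was in 19.2% of the site peaks and 32.0% of the others. All motifs were searched on the transcript strand, in windows of similar length (median 40 and 39 nt between the peak's edges), and no difference in composition was adjusted for.

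Pairing beyond the seed was looked for as a match to nt 13-16 of each microRNA in the bases just 5′ of the site. The letters TATT, matching miR-16 and miR-195a, stood there at 3.51% of the miR-15/16 sites and 5.44% of the sites of other families. CCAT, matching miR-15a and miR-15b, stood there at 2.66% and 1.92%. ACAT, matching miR-322, stood there at 4.63% and 3.84%, and CCAC, matching miR-497a, at 2.38% and 1.26%. These shares were not tested, and the letters do not show which family member was bound.

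Along the 3′ UTR the site peaks began 862 nt from its start in the median, against 881 nt for the others, at 43.0% and 45.8% of the annotated length. Their share of their own message was higher, given as a description with no test. In genes with more than one peak, 33.0% of the site peaks were the most-read peak, against 18.4% of the others, and a site peak held 19.8% of its gene's reads in the median, against 8.68%. In 119 of the 665 (17.9%, against 11.3% of the others) it was the gene's only peak, as in Aldoa, Il21, Arl2, Gcc2 and Mapk8. Higher reads in a peak and a higher rank within the gene are 2 views of one measure.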

How the data were processed

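AGO2-bound fragments were measured in 12 WT and 12 miR-155 KO libraries. The authors deposited 1 table of 14634 peaks, with log2 values of reads + 1 in 1 column per genotype and their log2 ratio of WT over KO, a p-value of differential binding, and other columns for the peak's start and end in the 3′ UTR and its sequence, per the file headers. No value per library is in the table and no source used here states the scaling, peak caller, test or removal of duplicate reads. Bowtie 0.12.7 and mm9 are named in the submitters' processing notes.

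Reads were computed as 2 to the log2 value minus 1. Sites were searched on the transcript strand of the deposited sequence, which extends 6 nt beyond each edge in 14608 peaks. The deposited p-values were adjusted by Benjamini-Hochberg across the whole table (threshold 0.05), and the adjustment and the site search were tested on simulated data. Lists are described by counts and medians, with no test of their own. Peaks were placed by exact match to GENCODE M21 transcripts (GRCm38), and microRNA sequences are those of RefSeq (GRCm38.p6). Peaks on chromosome 18 (22 of 665) are given by values only.

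The site peaks, families, gene lists and named genes were chosen with earlier results of these data known. Named were the 15 genes with the most-read site peak, the 10 smallest deposited p-values in each direction, genes with 2 or more site peaks of at least 10 reads, reported targets, up to 4 genes of each of the other lists, and the 5 most-read 8mer peaks. Some named items are not reported here. Zbtb34 and Zswim3 were taken off the ubiquitin ligase list, as not being ligases, after values were seen. Python 3.11.15, NumPy 2.4.6 and pandas 2.3.3 were used. Alternatives changed the threshold, the adjustment, the pseudocount, the site definition and the peaks included.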

Additional observations from a re-analysis of the deposited data

How the results depend on the processing

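No paired analysis was possible because the deposited table has 1 value per genotype and none per library. The same limit leaves depth, replicate spread and the effect of any single library unknown. The count of 0 called peaks could not change at an adjusted threshold of 0.01 or with a Bonferroni adjustment, which are stricter. Nor could it change at 0.1, since the smallest adjusted p was 0.194. It stayed 0 with adjustment only over peaks with reads in both genotypes or with at least 10 reads. At an unadjusted p below 0.05 there were 13 and 8 peaks. The median log2 ratio of 0.03 changed sign with at least 10 reads (-0.040) and when centred on the median of all peaks (-0.17), so its direction is not fixed. Its other alternatives ran from 0.006 to 0.07. Restricting the rule to 8mer sites gave 170 peaks, holding 2.14% of WT and 2.15% of KO reads. Without Vmp1, a gene with very many reads, the shares of all reads were 6.90% in WT and 7.28% in KO. The median site position stayed at +2 nt without the flanks and in peaks with 1 site. Leaving out Dvl2 peak 2, an alternative chosen after seeing the data, gave a median of 0.03 and shares of 6.46% and 6.70%.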

Other observations

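Peaks with only the 6-nt core GCTGCT stand outside the rule and were not described above. There were 242 of them in 230 genes, with a median of 18.6 reads and none called. The most-read was Dusp2 peak 2, from the gene of a nuclear phosphatase that inactivates MAP kinases, with 264 reads in WT and 398 in KO. It was followed by Kcmf1 peak 1, from a ubiquitin ligase gene, with 104 and 143. Cd28, whose 8mer peak 16 led the receptor genes, also had a core-only peak 2 with 66.8 and 119.5 reads. Zfp280b peak 15, from a zinc finger gene, had 48.2 and 161.6.

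Site peaks with at least 100 reads and a ratio of more than 2-fold, a set named after its values were seen, numbered 3 towards WT and 7 towards KO, 10.1% of 99 beside 9.97% of the other peaks of that depth. Beyond Prr11, Irf4, Jak2, Ccne1 and Il7r these were Ip6k1 peak 1, from an inositol hexakisphosphate kinase gene (86.5 and 39.8), and Frrs1 peak 1 (76.7 and 34.6) towards WT. Towards KO they were Srpk1 peak 3, from the gene of a kinase of splicing factors (28.9 and 88.3), Tor1aip2 peak 8 (40.8 and 104) and Txnip peak 12, from the gene of a brake on glucose uptake (37.8 and 91.1). None of the 10 was called.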
